A study of Saccharomyces cerevisiae with 10 samples.

Results

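The 8 genes described here encode the protein-aggregate machinery of the yeast cytosol and nucleus: the disaggregase HSP104, the sequestrases HSP26, HSP42, BTN2 and CUR1, and the J proteins YDJ1, SIS1 and APJ1. They were chosen by name, and each is read by 1 probe set whose identifier carries no mark of shared probes, so they make up 8 of the 5498 probe sets that name 1 Saccharomyces cerevisiae gene. All 8 lay above the background of the array. The arrays came from yeast grown at 26 °C to mid log phase in selective medium. The αENaC yeast (3 arrays) carried prs426GPD-αENaC-HA, a plasmid for the HA-tagged α subunit of the epithelial sodium channel, and the control yeast (7 arrays) carried the vector pRSGPD426 without it. In vectors of this type the constitutive GPD promoter drives the insert from a multicopy plasmid with a URA3 marker, so both groups carried such a plasmid and grew under the same selection. The host strain was not given in the sources used here.

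When cytosolic proteins misfold, small heat-shock proteins and other sequestrases gather them into deposits from which they can later be recovered. J proteins, also called Hsp40s, bring misfolded chains to Hsp70 and start its ATP cycle, and Hsp104, a ring-shaped AAA+ ATPase, then threads chains out of aggregates together with Hsp70 and a J protein. Most genes of this system are activated by the heat-shock factor Hsf1, and HSP104, HSP26 and HSP42 also answer to Msn2 and Msn4, the activators of the general stress response, which respond to nutrient and growth state as well as to heat.

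The sample titles carry running numbers, and the arrays are named by set. Set 1 (title numbers 1 to 4) holds αENaC 1 and 2 and controls 1 and 2. Set 2 (numbers 5 and 6) holds αENaC 3 and control 3, and set 3 (numbers 11 to 14) holds controls 4 to 7 alone. The labels do not say what the sets are. Across probe sets, the median correlation between arrays of 1 group was 0.998 inside a set and 0.985 across sets. Most arrays within a set are therefore near copies of each other, and p-values measure a spread that may be in part technical. Of the mating-type markers, all 4 α-specific genes and 2 of 6 a-specific genes lay above background. Levels below are log2 of the signal in units of the array's mean plus 0.03, after quantile normalization, and differences are on the same log2 scale. The number of arrays limits the precision, and fewer cells with a transcript cannot be told apart from less transcript per cell.

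For every one of the 8 genes the levels lay closer together over αENaC 1 to 3 than over controls 1 to 3. Over αENaC 1 to 3 the range ran from 0.10 for SIS1 to 0.52 for APJ1. Over controls 1 to 3, also 3 arrays from sets 1 and 2, it ran from 0.29 for YDJ1 to 3.57 for HSP26 and was the larger for 8 of 8 genes. For YDJ1, HSP104 and SIS1 the control range was at most 0.43, below the 0.52 of APJ1 in αENaC. Among all 5498 probe sets the controls had the larger range in 56.4%. The comparison of ranges rests largely on 1 array of set 2 a group, αENaC 3 against control 3. All 8 genes were read on these same arrays, which also enter the test between sets 1 and 2 below. The counts here and the results of that test are therefore not separate findings. None of the 8 genes differed 2-fold between αENaC 3 and the mean of αENaC 1 and 2. That is near the share over all probe sets, 1.78%, and so says little about these genes. HSP26, HSP42, BTN2 and APJ1 were at least 2-fold higher in control 3 than in the mean of controls 1 and 2, as were 2.40% of probe sets. For 6 of the 8 genes (all but HSP26 and YDJ1) control 3 was the highest of the 7 controls, which held for 20.4% of probe sets.

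**Figure D1:**
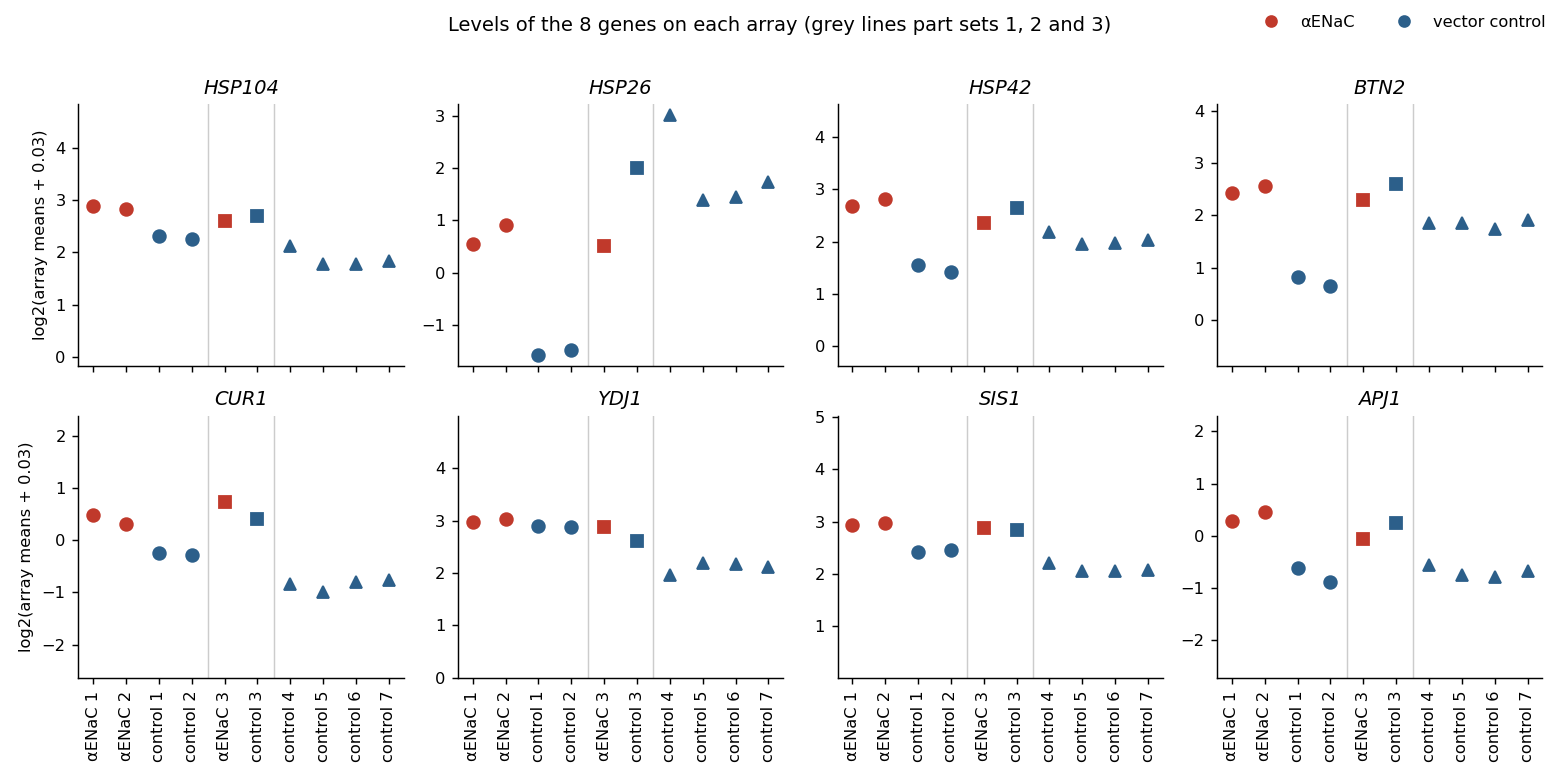
Levels of the 8 genes on each of the 10 arrays, as log2 of the signal in array means plus 0.03 (vertical axis, the same span in every panel), with arrays ordered by set along the horizontal axis; red is αENaC, blue is vector control, and circles, squares and triangles are sets 1, 2 and 3. The red points of a gene stay within 0.52 of each other, whereas the HSP26 controls run from −1.58 to 3.01.

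Among the sequestrases, the small heat-shock protein gene HSP26, whose product binds unfolding proteins when heat opens its oligomers, varied most. Its level was 0.55, 0.92 and 0.51 in αENaC 1, 2 and 3. In the controls it was −1.58 and −1.48 in set 1, 1.99 in control 3, and 3.01, 1.38, 1.45 and 1.73 in controls 4 to 7. The αENaC arrays therefore lay between the set 1 controls and all other controls, and the groups overlapped. The SD over the controls was 1.76, a size reached by 0.146% of the 5498 probe sets. Control 4, which stood apart from controls 5 to 7, had the highest HSP26 signal, at 8.55 array means against 2.43 to 3.17 in those 3 arrays.

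HSP42 encodes the other small heat-shock protein, which collects misfolded proteins into cytosolic deposits at ordinary temperatures too. It stood at 2.69, 2.82 and 2.37 in αENaC 1, 2 and 3. The controls were at 1.55 and 1.43 in set 1, 2.64 in control 3, and 1.96 to 2.18 in set 3. Control 3 lay among the αENaC arrays and above αENaC 3, and the other 6 controls lay below all 3.

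BTN2 and CUR1 are paralogs whose products direct misfolded proteins to deposits, Cur1 mainly to the nucleus. BTN2 was at 2.42, 2.55 and 2.30 in αENaC 1, 2 and 3, and at 0.83 and 0.64 in controls 1 and 2, 2.60 in control 3 and 1.75 to 1.90 in controls 4 to 7. Here control 3 was above every αENaC array, and the set 1 controls were the lowest arrays of all. CUR1 was at 0.48, 0.31 and 0.72 in αENaC 1, 2 and 3. It was at −0.24 and −0.29 in controls 1 and 2, 0.41 in control 3 and −0.99 to −0.76 in controls 4 to 7. So the paralogs ordered the controls differently: the lowest were those of set 1 for BTN2 and those of set 3 for CUR1.

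HSP104, the disaggregase, was at 2.89, 2.83 and 2.61 in αENaC 1, 2 and 3. Controls 1 and 2 were at 2.32 and 2.26, control 3 at 2.69 and controls 4 to 7 at 1.77 to 2.12. Only control 3 reached into the αENaC range.

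Of the J proteins, Sis1 is the essential one that works with Hsp70 and Hsp104 on aggregates and prions. Its gene was at 2.94, 2.97 and 2.87 in αENaC 1, 2 and 3, and at 2.42, 2.45 and 2.84 in controls 1, 2 and 3, with 2.06 to 2.21 in controls 4 to 7. SIS1 was the only one of the 8 whose groups did not overlap, by 0.03 between αENaC 3 and control 3. Among all probe sets 4.97% were higher in αENaC without overlap and 3.62% were lower. YDJ1, the gene of the main farnesylated J protein of the cytosol, was at 2.98, 3.03 and 2.89 in αENaC 1, 2 and 3. It was at 2.90 and 2.88 in controls 1 and 2, 2.61 in control 3 and 1.96 to 2.19 in controls 4 to 7, so the set 1 arrays of both groups were alike and set 3 was low. APJ1, whose J protein acts with Hsp70 on nuclear aggregates, was at 0.28, 0.46 and −0.06 in αENaC 1, 2 and 3. In controls 1 and 2 it was at −0.62 and −0.89, in control 3 at 0.25 and in controls 4 to 7 at −0.79 to −0.55.

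The comparison of αENaC with vector control asks whether the channel subunit is accompanied by a change in these genes. Over all 10 arrays 7 of the 8 genes had positive differences and HSP26 a negative one, but limma called none of the 8 at an adjusted p of 0.05. At an unadjusted p under 0.05 there were 6 of the 8. Over the 5498 probe sets 1.36% were called higher and 0.364% lower (18.2% at the unadjusted p), and 53.8% had a positive difference. The median of the 8 genes was 0.66, against 0.02 over all probe sets. These differences pool the sets, and controls 4 to 7 come from set 3, which holds no αENaC array. They therefore mix αENaC with differences between sets. With the set as a fixed block, the differences of CUR1, SIS1, APJ1, HSP104 and YDJ1 were smaller and those of HSP42 and BTN2 larger. CUR1 had the largest difference, 1.01 ± 0.27 (SE, n = 3 and 7; adjusted p = 0.0925), or 2.01-fold, with a 95% interval of 0.41 to 1.60. SIS1 was at 0.63 ± 0.16 (adjusted p = 0.0824), APJ1 at 0.80 ± 0.22 (adjusted p = 0.0977) and HSP104 at 0.67 ± 0.19 (adjusted p = 0.107). HSP42 was at 0.66 ± 0.23 (adjusted p = 0.170), YDJ1 at 0.56 ± 0.21 (adjusted p = 0.196) and BTN2 at 0.79 ± 0.36 (adjusted p = 0.276). For HSP26 the difference was −0.27 ± 0.93 with an interval of −2.33 to 1.78, wide enough to hold a severalfold difference either way. It turned positive with the set as a fixed block (1.02, adjusted p = 0.359), as a random block (0.86) and without control 4 (0.075).

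How many of the 8 were called depended on the arrays, blocks and scaling used. Control 3 was the highest of the 7 controls for 6 of the 8 genes, among them all 5 called below. Leaving it out had to raise their differences, so that fit is no separate support for a rise. Without control 3, limma called 5 of the 8 higher, against 2.95% of the probe sets called higher and 4.31% called either way. APJ1 rose by 0.94 ± 0.12 (adjusted p = 0.00494), SIS1 by 0.72 ± 0.11 (adjusted p = 0.0115) and CUR1 by 1.16 ± 0.18 (adjusted p = 0.0136) in that fit. HSP104 rose by 0.76 ± 0.15 (adjusted p = 0.0259) and HSP42 by 0.77 ± 0.18 (adjusted p = 0.0471). BTN2 at 0.96 (adjusted p = 0.117) and YDJ1 at 0.60 (adjusted p = 0.170) were not called. That fit keeps αENaC 3 but drops the control of its own set. Leaving out any other single array gave no call among the 8. With the set as a fixed block, which compares αENaC with controls within sets 1 and 2, CUR1 rose by 0.54 ± 0.09 (adjusted p = 0.0101) and SIS1 by 0.36 ± 0.10 (adjusted p = 0.0443), against 7.38% of probe sets called higher. In that fit BTN2 was at 1.07 (adjusted p = 0.072), HSP42 at 0.75 (adjusted p = 0.0903) and APJ1 at 0.64 (adjusted p = 0.12). HSP104 was at 0.35 (adjusted p = 0.123), YDJ1 at 0.17 (adjusted p = 0.137) and HSP26 at 1.02 (adjusted p = 0.359). Of the 2 called, CUR1 was 0.66 higher within set 1 and 0.31 within set 2, and SIS1 0.52 and 0.03. The replicate block, over 3 against 3 arrays, gave the same differences but called no probe set at all, and so none of the 8. CUR1 had an adjusted p of 0.155 and SIS1 of 0.248 there, and 1 of the 8 had an unadjusted p under 0.05. With the arrays centred on their medians in place of quantile normalization, the 7 positive differences were 0.29 to 1.03 and none was called.

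**Figure D2:**
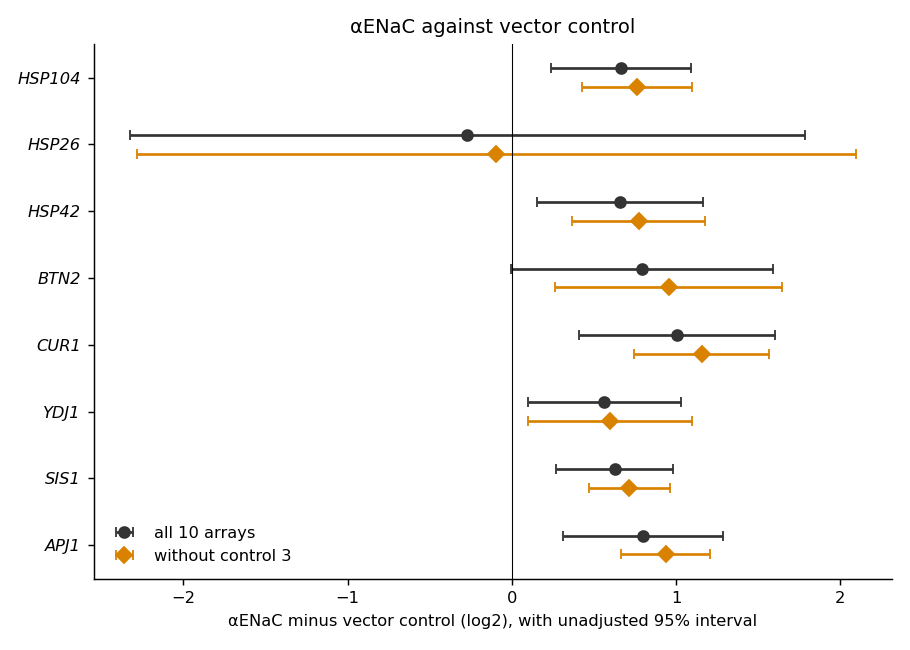
Difference between αENaC and vector control for each gene (horizontal axis, log2) with its 95% interval, not adjusted for multiple tests; black circles use all 10 arrays and orange diamonds leave out control 3. CUR1 lies at 1.01 and 1.16, and the HSP26 intervals run from −2.33 to 1.78 and from −2.28 to 2.10.

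Within set 1, all 8 genes were higher in both αENaC arrays than in both controls, which held for 37.3% of the 5498 probe sets, while 44.6% were lower on both. HSP26 was 2.26 higher (4.80-fold), BTN2 1.75 (3.37-fold), HSP42 1.27 (2.41-fold) and APJ1 1.12 (2.18-fold). These were 4 of the 8, against 1.62% of probe sets that were at least 2-fold higher. CUR1 was 0.66 higher, HSP104 0.57, SIS1 0.52 and YDJ1 0.11. A fit to set 1 alone called 7 of the 8 higher, all but YDJ1, but with 2 near-identical arrays a group it called 60.2% of all probe sets (28.4% higher).

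Within set 2, with 1 array a group and so no error of its own, αENaC 3 lay below control 3 for 5 of the 8 and for 50.1% of all probe sets. HSP26 was at −1.48, or 2.79-fold lower, and was the 1 of the 8 that passed 2-fold, as did 0.909% of probe sets. APJ1 was at −0.31, BTN2 at −0.30, HSP42 at −0.27 and HSP104 at −0.08. CUR1 at 0.31, YDJ1 at 0.28 and SIS1 at 0.03 were higher. Over all probe sets 22.2% were higher in set 1 and lower in set 2.

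Whether the 2 within-set differences differ was tested in a fit with a mean for each group within each set (5 residual degrees of freedom). Since set 2 has 1 array a group, the spread in this test comes from the arrays within sets 1 and 3. These are near-identical but for control 4, which stood apart in its set, and the p-values measure that spread alone. The set 1 difference was larger at an adjusted p under 0.05 for 5 of the 8 genes, against 9.53% of probe sets in that direction and 7.86% in the other. For HSP26 it was larger by 3.74 ± 0.86 (adjusted p = 0.0287), the largest such value in size among the 5498. BTN2 differed by 2.05 ± 0.14 (adjusted p = 0.00118), HSP42 by 1.54 ± 0.15 (adjusted p = 0.00388), APJ1 by 1.43 ± 0.20 (adjusted p = 0.00859) and SIS1 by 0.50 ± 0.11 (adjusted p = 0.0245). HSP104, at 0.65 ± 0.20 (adjusted p = 0.0614), CUR1, at 0.35 with an interval of −0.01 to 0.71 (adjusted p = 0.147), and YDJ1, at −0.17 with an interval of −0.48 to 0.15 (adjusted p = 0.422), did not pass. Without αENaC 1, αENaC 2, control 1 or control 2 in turn, 3 of the 8 passed each time, since HSP26 and SIS1 no longer did. HSP26 also failed without control 7 (adjusted p = 0.0547), and HSP104 passed without control 4 (adjusted p = 0.000640). With near-identical arrays averaged, 1 residual degree of freedom was left and none of the 8 passed (lowest adjusted p = 0.405). Of the called probe sets 54.8% had the larger difference in set 1, but 40.0% without quantile normalization and 62.1% with median centring, and SIS1 was not called in either (adjusted p = 0.0522 and 0.0537), which left 4 of the 8.

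**Figure D3:**
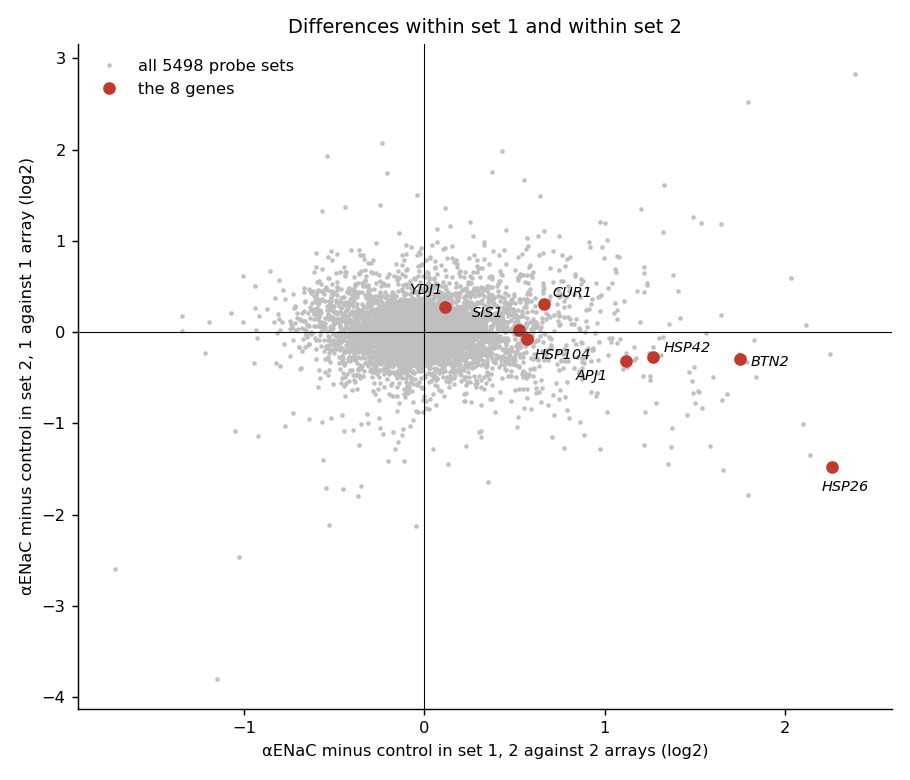
Difference between αENaC and control within set 1 (horizontal axis, means of 2 against 2 arrays) and within set 2 (vertical axis, 1 against 1 array), both log2; grey points are the 5498 probe sets and red points the 8 genes. All 8 lie to the right of 0, 5 of them below the horizontal line, with HSP26 at 2.26 and −1.48.

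The controls alone showed how far these genes moved with no αENaC plasmid in any array. Between set 3 and set 1 limma called 7 of the 8 genes, all but APJ1, where 64.3% of all probe sets were called (27.2% higher and 37.1% lower in set 3). The members split: HSP26, HSP42 and BTN2 were higher in set 3, and HSP104, CUR1, YDJ1 and SIS1 lower. HSP26 was higher by 3.43 ± 0.43 (adjusted p = 0.000373), or 10.7-fold, BTN2 by 1.10 ± 0.07 (adjusted p = 2.49e-05) and HSP42 by 0.55 ± 0.08 (adjusted p = 0.000636). YDJ1 was at −0.78 ± 0.07 (adjusted p = 7.75e-05), CUR1 at −0.58 ± 0.08 (adjusted p = 0.000481), HSP104 at −0.41 ± 0.10 (adjusted p = 0.00815) and SIS1 at −0.33 ± 0.05 (adjusted p = 0.00120). APJ1 was at 0.06 ± 0.10 (adjusted p = 0.612). Median centring turned it to −0.07, and if quantile normalization was left out it was called lower (−0.31, adjusted p = 0.0222), which made 8 of the 8 called. HSP104 and SIS1 were not called with median centring (−0.18 and −0.03), HSP104 was not called without control 1 (−0.39, adjusted p = 0.0588), and HSP26 was not called on the deposited z scores (adjusted p = 0.0915). With near-identical arrays averaged none of the 8 passed (lowest adjusted p = 0.0502). Of the called probe sets 42.3% were higher in set 3, but 25.1% without quantile normalization, and the overall median lay at −0.27 there. Control 3 exceeded the mean of controls 4 to 7 in all 8 genes and in 53.9% of probe sets, by 0.10 for HSP26 and by 0.50 to 1.26 for the other 7.

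Related genes were taken from lists chosen with earlier results of these data known. Of 24 other cytosolic heat-shock genes, Hsp70s, Hsp90s and their partners, 2 rose and none fell over all 10 arrays, and 21 were positive with a median of 0.33. SSA3, an Hsp70 gene, rose by 0.47 ± 0.07 (adjusted p = 0.0103) and HSP82, an Hsp90 gene with a near-identical copy in HSC82, by 0.84 ± 0.17 (adjusted p = 0.0392). AHA1, which encodes an activator of the Hsp90 ATPase, was at 0.53 ± 0.12 (adjusted p = 0.0588). Their median was 0.31 within set 1 and 0.09 within set 2, and for 8 of the 24 the set 1 difference was the larger by the test between sets. Among them was SSA4, the stress-induced Hsp70 gene, at 1.59 in set 1 and −1.25 in set 2 (adjusted p of the difference 0.00896; chosen after its values were seen). HSF1, which encodes the heat-shock factor, was at 0.01 (adjusted p = 0.962). SSA3 was not called without αENaC 1 or αENaC 2 (adjusted p up to 0.105), and HSP82 only passed without αENaC 3, control 3 or control 4 in turn (adjusted p from 0.00134 to 0.217 over the 10 fits with 1 array left out). With the replicate number as a block their adjusted p was 0.146 and 0.222, but that fit called no probe set at all. With the set as a fixed block it was 0.00531 and 0.0372, in a fit that called 7.38% of probe sets higher.

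Of 10 other J protein genes, 3 were higher in αENaC in set 1 (46.1% of all probe sets) and 5 in set 2 (49.5%). Their median was −0.23 within set 1 and 0.01 within set 2, 8 of the 10 were above background, and 1 rose over all arrays. That was SWA2, the auxilin that uncoats clathrin vesicles, at 0.72 ± 0.14 (adjusted p = 0.0293), with 0.58 in set 1 and 0.54 in set 2. SWA2 was not called without αENaC 1, αENaC 2, control 5, control 6 or control 7 (adjusted p up to 0.209). The replicate block, which called no probe set at all, did not call it either (adjusted p = 0.111). The fit with the set as a fixed block did (adjusted p = 0.0065). XDJ1 was at −0.29 (adjusted p = 0.118) and HLJ1, a J protein of the ER membrane, at 0.23 (adjusted p = 0.215). Of 10 aggregate and prion partners none was called by limma (1 at an unadjusted p under 0.05), and their medians were 0.11 in set 1 and 0.05 in set 2. The metacaspase gene MCA1 was at 0.25 (adjusted p = 0.172), HSP30, a plasma membrane heat-shock protein gene, at 0.53 (adjusted p = 0.296) and VAC17, the vacuole inheritance adaptor, at −0.18 (adjusted p = 0.370).

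General stress genes, like HSP26, HSP42, BTN2 and APJ1, mostly had positive differences in set 1 and negative ones in set 2. Of 29 genes that Msn2 and Msn4 activate, with MSN2 and MSN4 themselves, 28 were higher in αENaC in set 1 (46.1% of all probe sets). In set 2, 23 of the 29 were lower (50.1%). Their medians were 1.22 and −0.49, against −0.02 and −0.00098 over all probe sets. For 22 of the 29 the set 1 difference was the larger by the test whose spread comes from arrays that are mostly near-identical. With near-identical arrays averaged, that test called no probe set at all (456 at an unadjusted p under 0.05). In the controls 23 were higher in set 3 than in set 1 and none lower. Over all 10 arrays limma called none (3 at an unadjusted p under 0.05), with NTH1 at 0.61 (adjusted p = 0.0735), PNC1 at 0.40 (adjusted p = 0.159) and GLK1 at 0.44 (adjusted p = 0.212). The summed signal of the list ran from 85.7 to 108.9 array means in αENaC and from 59.0 to 128.1 in the controls. Of 13 genes that yeast represses while glucose lasts, 7 were above background, and the median was 0.20 in set 1 and −0.02 in set 2. 1 of them rose, the malate dehydrogenase gene MDH2 at 0.83 ± 0.11 (adjusted p = 0.00715). Its adjusted p was 0.0592 without αENaC 2 and 0.146 with the replicate block, which called no probe set at all. With the set as a fixed block it was 0.00192. PCK1 was at −0.37 (adjusted p = 0.455) and ACS1 at −0.14 (adjusted p = 0.301). Over all 10 arrays the median of the 13 was −0.04 with 6 positive. Their summed signal was 7.79 to 8.66 array means in αENaC and 5.77 to 6.69 in the controls, and 4.08 to 5.21 against 3.91 to 4.73 without MDH2. The part of stress and growth state in the values of the 8 genes was not tested.

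**Figure D4:**
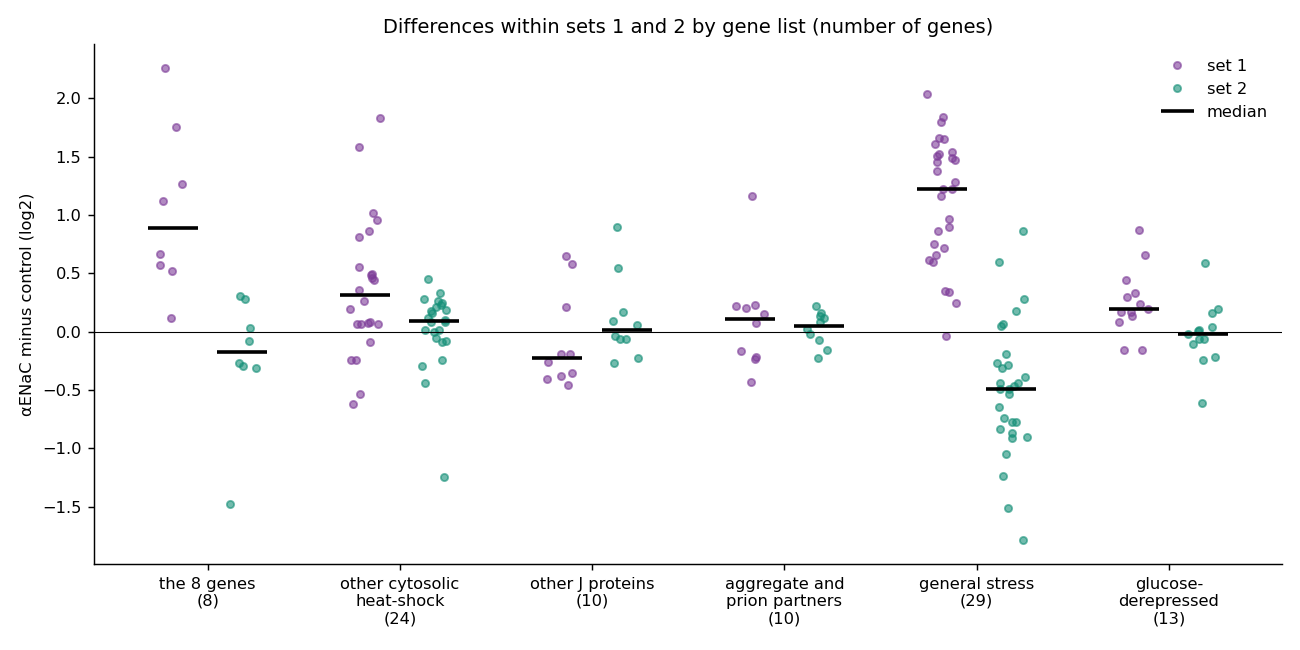
Differences between αENaC and control (vertical axis, log2) within set 1 (purple) and set 2 (green) for each gene of the 8 and of 5 related lists, with the number of genes under each name and black bars for medians. General stress genes have medians of 1.22 and −0.49 and the 8 genes 0.89 and −0.18, while those of the other J proteins are −0.23 and 0.01.

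The likeness of patterns was measured as the root mean square distance between the levels of 2 genes over the 10 arrays, each centred on its own mean, over the 4959 probe sets above background. HSP104 and SIS1 were each other's nearest gene, 0.08 apart, against an SD over the arrays of 0.41 and 0.37. SIS1 was followed by FES1, an exchange factor gene of cytosolic Hsp70, at 0.08 and YER187W at 0.09, and HSP104 by SAF1 and IRC4 at 0.12 each. APJ1 was nearest to HSP78, the mitochondrial relative of HSP104, at 0.11, then to HSP82 at 0.12 and YPL247C at 0.14. HSP42 was nearest to OPI10 at 0.07, EMI2 at 0.12 and YPL247C at 0.13.

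BTN2 lay nearest to genes of storage carbohydrates: TSL1 of trehalose synthesis at 0.17, GSY1 of glycogen synthesis at 0.21 and the phosphoglucomutase gene PGM2 at 0.24. TSL1 and PGM2 are also in the general stress list. HSP26 had no close match for its SD of 1.38, with IGD1 and GPG1 at 0.51 and GAC1, a phosphatase subunit gene for glycogen synthesis, at 0.57. YDJ1 was nearest to EMC2 at 0.09, UBA2 at 0.10 and DIA1 at 0.11. CUR1 was nearest to URA8 at 0.20, CYC7 at 0.21 and YNR068C at 0.23, and its distance to its paralog BTN2 was 0.65. Within the 8, HSP42 and APJ1 were 0.20 apart. APJ1 was 0.223 from HSP104 and 0.225 from SIS1, YDJ1 was 0.225 from SIS1 and 0.245 from HSP104, and HSP42 was 0.248 from BTN2. HSP26 was 1.06 to 1.68 from the other 7, but BTN2, at 1.06, still ranked 147 by nearness to HSP26 among 4958 probe sets.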

How the data were processed

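Each probe set has a deposited score, which from the values is a z score within each array (mean 0, SD 1 over 10715 probe sets). Per the labels' protocols, total RNA was labelled as biotin cRNA with the 3' IVT Express kit. The authors' probe summary was not given in the sources used here. Each array's lowest score was taken as 0 signal and its size as the array mean; 0.03 was added, log2 taken and the arrays quantile normalized. Changes of low genes are understated on this log2 scale. Gene names were those of the platform annotation, updated through gene identifiers of the R64 RefSeq table, which gave 5498 probe sets with 1 yeast gene. The 95th percentile of the 1746 probe sets with other names set the background (−2.03), which 4959 exceeded.

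Tests used limma 3.58.1 under R 4.3.3 (lmFit, eBayes, 2-sided, Benjamini-Hochberg over 5498 probe sets, threshold 0.05), with 8 residual degrees of freedom over all arrays and 5 with a mean for each group within each set. The steps were run on simulated data with independent noise and no background differences between sets. That cannot show how the tests behave on arrays that differ between sets and are near copies within them. The members, lists and tests were chosen with earlier results of these data known. All 8 members are named, as are up to 3 genes per list by smallest p and the 3 nearest in pattern to each member; the mating-type lists were used only for the count above background. Same-numbered arrays of the groups deviated together (correlations of 0.41, 0.22 and 0.17). They also share a set, so these values cannot show that replicate numbers pair the samples. The main comparison used no pairing, and the replicate number was a block in an alternative fit. Alternatives changed the scaling, pseudocount, filter, probe sets tested, variance model, blocks and arrays used. Averaging of near-identical arrays, with control 4 kept apart, was added after seeing the data.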

Additional observations from a re-analysis of the deposited data

Results flagged for a closer look

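APJ1 in control 3 stood apart from the other 6 controls, with a gap to the nearest that was 0.704 of the range of the 7. The rule would flag about 1 in 20 groups of independent values. That rate does not hold here, as control 3 is the only control of its set and most others are near copies. The rule was also applied to each of the 8 genes. The αENaC difference was larger in set 1 than in set 2 by the test for HSP26 (3.74), BTN2 (2.05), HSP42 (1.54), APJ1 (1.43) and SIS1 (0.50). Set 2 has 1 array a group, and the spread in that test comes from arrays that are near-identical but for control 4. With near-identical arrays averaged none of the 5 passed. SIS1 also failed without quantile normalization, with median centring and without any 1 array of set 1.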

How the results depend on the processing

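For αENaC against control, 95 probe sets were called (78.9% higher), but 46 without quantile normalization (97.8% higher; median of all probe sets 0.16), 39 with median centring (87.2% higher), 93 on z scores (95.7% higher), 783 and 617 with the set as a fixed and a random block, 20 in sets 1 and 2, 3309 in set 1 alone and 12 to 237 with 1 array left out. The replicate block (3 against 3 arrays) called 0, with 1127 at an unadjusted p under 0.05, and so did averaging near-identical arrays, with 219; neither called any of the 8 genes. Of the 8, 1 was called on z scores (CUR1), 2 with either set block, 7 in set 1 alone and 0 to 5 with 1 array left out, against 0 in the main comparison. HSP26 turned positive with the set as a fixed block (1.02), as a random block (0.86), with the replicate block (1.02), in sets 1 and 2 (1.02), in set 1 alone (2.26) and without control 4 (0.075, in a range of −0.69 to 0.075 with 1 array left out). The set 1 against set 2 difference was called for 956 probe sets, 612 with median centring, 193 to 2472 with 1 array left out and 0 with averaging (456 at an unadjusted p under 0.05), and for 5 of the 8, 3 to 6 and 0 (4 at an unadjusted p under 0.05). Without quantile normalization and with median centring 4 of the 8 were called, without SIS1, and on z scores HSP26 was not (adjusted p = 0.429). Set 3 against set 1 controls gave 3535 calls, 2655 to 4128 with 1 array left out and 86 with averaging, and 7, 6 to 7 and 0 of the 8 (5 at an unadjusted p under 0.05). APJ1 turned negative there without quantile normalization (−0.31), with median centring (−0.074), on z scores (−0.026) and without control 2 (−0.074, in a range of −0.074 to 0.20 with 1 array left out). The number of arrays, most of them near copies within a set, limits every p-value, and taking the lowest score as 0 leaves additive background unknown.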
